A study of Mus musculus with 36 samples.

Results

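The cytosolic ribosomal protein genes were taken as every row of the deposited count tables whose symbol is Rpl or Rps with a number and an optional final letter a, x, y, l or p, together with Rplp0, Rplp1, Rplp2 and Rpsa. Pseudogene symbols and the Rps6k kinases were left out. This gave 82 of 21699 rows, 50 named for the large subunit and 32 for the small one, spread over 19 chromosomes with 4 on the X. The measured tissue was the fetal mouse gonad at the time of sex determination. XX control and XY control embryos (wild type in the labels) were compared with XX KO and XY KO embryos, which lack the miR-17~92 microRNA cluster (MiRC1 Mutant in the labels, with both miR-17~92 alleles deleted by the transgene Tg(CAG-cre)1Nagy, whose promoter is active in all tissues). Each genotype had 3 libraries per stage (E11.5 and E12.5), 24 libraries in all, and each library pooled 2 pairs of gonads. The E11.5 libraries came from gonads with the mesonephros attached and the E12.5 libraries from isolated gonads, with different stranded library kits, so the stages were fitted apart and levels are not compared between them.

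The ribosome is built from ribosomal RNA and one copy of nearly every ribosomal protein per particle, so cells make these proteins in near-equal amounts. Their mRNAs are short and abundant, and begin with a run of pyrimidines at the cap, the 5' terminal oligopyrimidine (TOP) tract, through which the mTOR kinase and LARP1 adjust their translation. Some members have a tissue-restricted duplicate: Rpl10l and Rpl39l are autosomal relatives of the X-linked Rpl10 and Rpl39 and are known for their role in male germ cells.

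The sequence around the annotated start is shown for the 5 members that passed a test in these data, to set the annotated start beside the tract described above. Each window holds the 15 bases on either side of the RefSeq start on the sense strand (GRCm38.p6), and capitals mark the longest pyrimidine run of at least 5 bases that begins with C. The windows lie at chr9:64173372-64173401 (plus strand) for Rpl4, chr14:18270972-18271001 (minus strand) for Rpl15, chrX:102189377-102189406 (minus strand) for Rps4x, chr12:66284387-66284416 (minus strand) for Rpl10l and chr16:10170213-10170242 (plus strand) for Rpl39l.
Rpl4: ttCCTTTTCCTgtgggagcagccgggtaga
Rpl15: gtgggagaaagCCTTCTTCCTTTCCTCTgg
Rps4x: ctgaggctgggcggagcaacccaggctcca
Rpl10l: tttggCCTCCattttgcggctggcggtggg
Rpl39l: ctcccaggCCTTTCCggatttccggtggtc

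RefSeq windows were matched for 61 of the 82 members, and 38 of them (62.3%) held such a run. The share was 37.6% of the 15930 other genes of the tables with a window and 36.4% of all 27025 windows. On the opposite strand the run was found in 24.6% of the members' windows and 40.3% of all windows. A run of 8 or more bases was present in 23 members (37.7%) against 9.1% of all windows. The Rpl15 run covered 17 bases and spanned the annotated start, the runs of Rpl4, Rpl10l and Rpl39l lay before it, and the Rps4x window held no run of 5. These are letter matches and no measure of translation.

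The first 30 coding bases are shown for the X-linked genes and their autosomal relatives, since reads of the pairs must be told apart by such differences. Capitals mark the positions at which the members of a pair differ (GENCODE M21 transcripts, GRCm38). The bases span chrX:74271002-74271666 for Rpl10 and chrX:37084062-37085127 for Rpl39, each across an intron, and lie in a single exon at chr12:66284328-66284357 for Rpl10l and chr16:10174310-10174339 for Rpl39l.
Rpl10: atgggCcgCcgCccCgcCcgGtgttaccgg
Rpl10l: atgggTcgTcgTccGgcTcgCtgttaccgg
Rpl39: atgTcttctcacaagacTttcCgAatcaag
Rpl39l: atgGcttctcacaagacCttcAgGatcaag

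Rpl10 and Rpl10l were identical at 84.7% of their 642 aligned coding bases, and Rpl39 and Rpl39l at 85.0% of 153. The other pairs among the members were Rpl36a and Rpl36al (87.7%), Rps27 and Rps27l (76.7% of aligned positions) and Rpl3 and Rpl3l (74.3%). Rps4l, the relative of Rps4x on chromosome 6, is annotated as a transcribed processed pseudogene and has no coding sequence there.

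Library totals ran from 17150620 to 34077443 counts at E11.5 and from 11877379 to 44155275 at E12.5, and the 82 members took 1.56% to 2.77% of each library. Levels are given as CPM, the count of a gene scaled to a common library total over the tested genes with edgeR's TMM factors, and per kilobase of one chosen transcript per gene where genes are compared. The host transcript of the cluster, Mir17hg, is given per full library total, without TMM factors. On that scale it stood at 17.59 to 45.96 CPM in the controls of E11.5 and 92.64 to 152.17 CPM in the KO libraries. At E12.5 it stood at 12.92 to 37.61 and 68.42 to 86.39 CPM. Reads of this transcript from outside the deleted segment do not measure the deletion. The row for the precursor Mir17 held at most 3 counts in any library. Defining markers of the gonad (Nr5a1, Wt1, Gata4 and Lhx9 among 6 gonadal somatic genes) and of germ cells were present in every group, and the 8 germ cell markers were at 0 in none.

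Of the 82 members, 80 reached 1 CPM in at least 2 of the 12 libraries at both stages and were tested. Rpl26 had 0 counts in all 12 libraries of E11.5 and 1 count in all at E12.5. A 0 in a single library allows an expected count of up to 3, and a 0 in all of them allows less. A share of 57.52% of the Rpl26 windows occurs in another gene's transcripts, and the cause of the missing counts was not tested. Rpl3l, the relative of Rpl3 known from striated muscle, had 43 counts over the 12 libraries of E11.5 and 56 over those of E12.5.

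The counted levels of the tested members were far from equal. Per kilobase they ran from 2.43 to 1589 CPM at E11.5 and from 5.47 to 1430 CPM at E12.5, with medians of 136 and 125. The highest at E11.5 were Rpl8 (1589), Rps14 (1438) and Rps15 (1403), and at E12.5 Rplp1 (1430) and Rpl8 (1347). The lowest tested at E11.5 were Rpl10l (2.43), Rpl39l (2.83) and Rpl30 (6.36), and at E12.5 Rps27 (5.47), Rpl10l (5.79) and Rpl30 (5.90). Rpl10l and Rpl39l are the germ cell relatives, whereas Rpl30 and Rps27 are not. Rps27 has the relative Rps27l among the members, with 128 CPM per kilobase at E11.5 and 148 at E12.5. Of the 20 highest members at E11.5, 18 were also among the 20 highest at E12.5.

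Ribosomal protein genes have many processed copies in the genome, and reads from a copy cannot be told from reads of the gene where the sequence is the same. Of the 82 members, 78 shared at least one 75-base window, the read length, with an annotated transcript of another gene. Among the tested genes this held for 96.25% of members and 19.2% of other genes, and the median share of windows was 40.25% against 0%. The 18 members with under 20% of windows shared had a median of 209 CPM per kilobase at E11.5, the 33 members with 20% to 50% had 89.9 and the 31 members with over 50% had 111. At E12.5 the medians were 181, 85.5 and 112. Rps27, with 98.52% of its windows shared, had 7.41 CPM per kilobase at E11.5, and Rpl30, with 24.51%, had 6.36. Rps3, which shares no window, had 877. How reads with several matches were counted is not given in the sources used here, so the level of a member with shared windows is uncertain, and the part of shared sequence in the unequal levels was not tested.

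**Figure D1:**
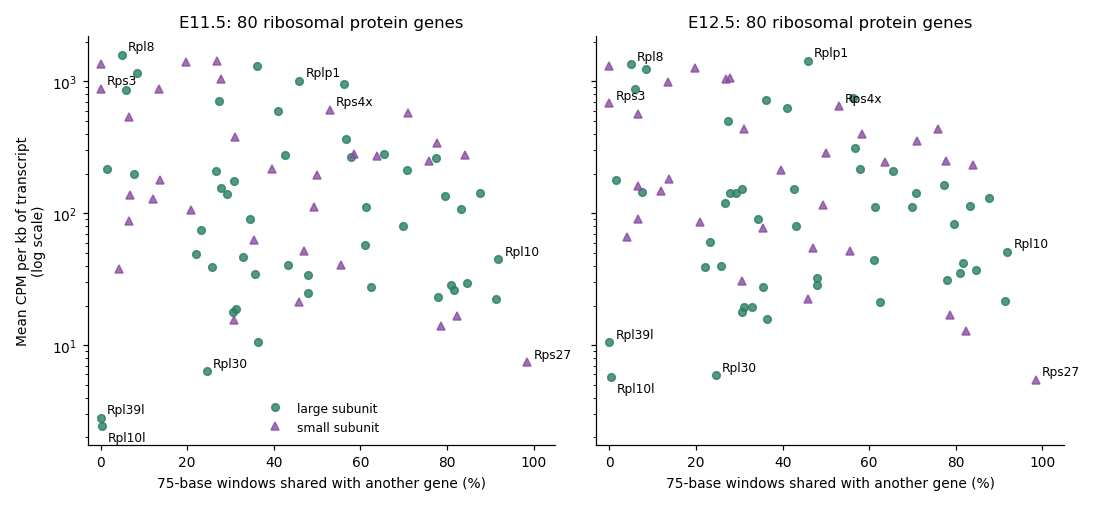
Mean level of each of the 80 tested ribosomal protein genes (CPM per kilobase of transcript over 12 libraries, log scale) against the share of its 75-base windows that occur in another gene's transcripts, at E11.5 (left) and E12.5 (right). Circles are large-subunit and triangles small-subunit genes. Rps27 lies at the lower right with 98.52% of windows shared, and Rps3 at the upper left with 0%.

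The members were also short. Their chosen transcripts had a median of 819 bases, against 2971.5 for the other tested genes, and 56 of the 82 had up to 1000 bases. The coding length had a median of 453 bases over 81 members and ran from 75 for Rpl41 to 1257 for Rpl4. Only 2 members had a chosen transcript over 3000 bases, Rps15a (5179) and Rps20 (3706), although their coding lengths were 390 and 357. The level per kilobase of these 2 is therefore low by construction.

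Within a library the members deviated together. The deviation is the log2 CPM of a gene minus its mean over the 12 libraries of the stage, and its median over the 80 members describes the module. At E11.5 the XX control libraries had medians of -0.23, -0.01 and -0.24, and the XX KO libraries -0.25, -0.12 and 0.20. The XY control libraries had 0.25, -0.18 and 0.34, and the XY KO libraries -0.03, 0.15 and 0.16. In 9 of the 12 libraries, 64 or more of the 80 members lay on the same side of their mean. XY control replicate 2 was below the mean, whereas the other XY control libraries were the highest of the stage.

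At E12.5 the medians were -0.27, 0.03 and 0.32 in the XX control libraries and 0.40, -0.17 and 0.55 in the XX KO libraries. They were -0.15, -0.27 and -0.16 in the XY control libraries and -0.07, -0.02 and -0.05 in the XY KO libraries. In 6 of the 12 libraries of this stage, fewer than at E11.5, 64 or more members lay on the same side. The XX groups were wide, with XX KO replicate 2 far below the other XX KO libraries, whereas the XY groups were narrow. Between replicates, the pooled standard deviation of the module median was 0.20 for the E11.5 libraries and 0.24 for those of E12.5. The large-subunit and small-subunit medians differed little from each other in a library: they were 0.55 and 0.55 in XX KO replicate 3 of E12.5, and 0.32 and 0.36 in XY control replicate 3 of E11.5.

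**Figure D2:**
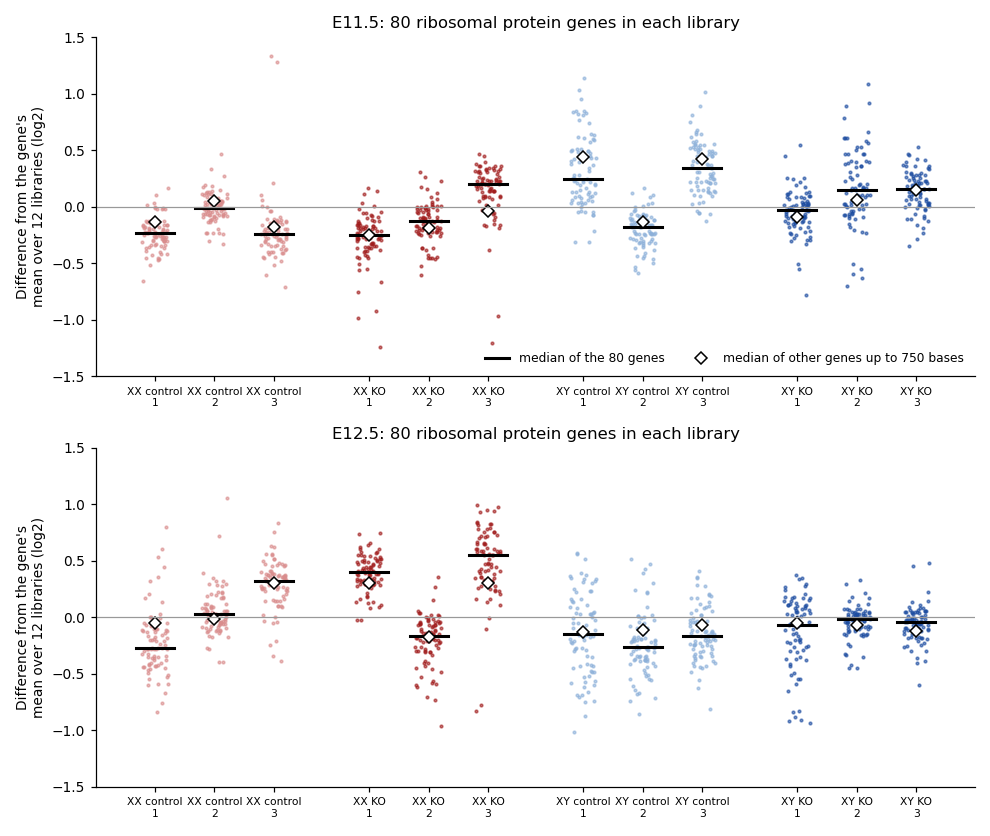
Deviation of each of the 80 ribosomal protein genes from its own mean over the 12 libraries of a stage (log2 CPM), by library. Points are genes, black bars are medians of the 80 genes and open diamonds are medians of the other tested genes with transcripts of up to 750 bases. Libraries of one genotype differ from each other, as XX KO replicate 2 (-0.17) does from replicate 3 (0.55) at E12.5, and the diamonds mostly lie on the same side as the bars.

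Other short transcripts moved with the module. In each library the slope of the deviation on log2 transcript length was fitted over the tested genes that are no members. The slope had the opposite sign to the module median in 21 of the 24 libraries, and the other genes of up to 750 bases lay on the same side as the module in 21. The slopes ran from -0.13 in XY control replicate 3 to 0.10 in XX KO replicate 1 at E11.5, and from -0.19 in XX KO replicate 1 to 0.10 in XY KO replicate 1 at E12.5. XX KO replicate 3 of E11.5 was one exception, with a module median of 0.20 and a median of -0.04 for the other short genes. When a smooth trend on length, fitted without the members, was taken out of each library, the range of the module median narrowed from 0.593 to 0.453 (E11.5) and from 0.824 to 0.577 (E12.5). The module kept its sign in 20 of the 24 libraries.

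In the gonads of E11.5, XY KO against XY control, 12.7% of the 14217 tested genes passed an FDR of 0.05 (edgeR's quasi-likelihood test, Benjamini-Hochberg over all tested genes), and 2 of the 80 members did, both higher in XY KO (5.88% of all tested genes). These were Rpl4 and Rpl15, both proteins of the large subunit. Rpl4 had 1412, 1580 and 1603 CPM in the XY control libraries and 1915, 2279 and 1968 CPM in the XY KO libraries, and the groups did not overlap. Its log2 fold change was 0.42 ± 0.12 (SE, adjusted p = 0.0296 by edgeR). Rpl15 had 254, 208 and 303 CPM against 313, 346 and 350 CPM, again without overlap, and a log2 fold change of 0.40 ± 0.12 (adjusted p = 0.0453 by edgeR). The call of Rpl4 was lost without XY control replicate 1 (0.37), XY KO replicate 1 (0.47) or XY KO replicate 2 (0.34), and Rpl15 kept its call in 3 of the 12 fits that leave out a library.

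The 80 members had a median log2 fold change of -0.04 there, beside -0.03 for all tested genes. Of them, 29 lay above 0 and 51 below, and 9 had an unadjusted p under 0.05 (28.9% of all tested genes did). The median SE was 0.182 for the members and 0.135 for all tested genes (0.214 and 0.176 for the same comparison at E12.5). A typical member thus needed a larger fold change to be called than a typical tested gene. There was no overlap between the groups for 7 members that were higher in XY KO (14% of all tested genes) and 3 that were lower (14.5%). By length class the members of up to 750 bases had a median of -0.25 and the other genes of that length -0.23, whereas the 6 members over 1500 and up to 2000 bases had 0.30 and the other genes -0.06. Taking out the length trend turned the members' median to 0.11 and 11 were called, all higher in XY KO, among them Rpl4, Rpl13, Rpl15, Rpl23, Rpl27a, Rpl36a, Rpl36al, Rps4x and Rps26 (17.3% of all tested genes were called). Without XY control replicate 2, 15 members were called, 14 of them lower in XY KO (20.4% of all genes were called, higher or lower).

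In XX KO against XX control gonads of E11.5, edgeR called 0 of the 80 members and 3.27% of all tested genes, and DESeq2 also called 0 members (5.47% of all genes). At an unadjusted p under 0.05 there were 2 members and 15.7% of all genes. The members' median was 0.10 against -0.0023 for all genes, and 58 of 80 lay above 0. For 6 members the groups did not overlap, all higher in XX KO (12.7% of all genes, with 11.9% lower). The members' medians in the length classes up to 2000 bases ran from 0.06 to 0.20, whereas those of the other genes ran from -0.07 to -0.03. Without the length trend the median was 0.19, and Rpl29 and Rps10 were called higher (4.38% of all genes were called, higher or lower). The module median of the XX KO libraries spanned -0.25 to 0.20, and leaving out XX KO replicate 3 turned the members' median fold change to -0.06.

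Between the control sexes at E11.5 nearly every member had a value below 0 for XX over XY, but none passed the test. Of the 80 members, 76 had a log2 fold change below 0 (XX over XY), and their median was -0.31 against -0.01 for all genes, or 0.80-fold. The largest differences were those of Rpl12 (-0.84), Rpl9 (-0.82) and Rps27 (-0.81). EdgeR called 0 members and 0.886% of all genes, with 24 members at an unadjusted p under 0.05 (17.9% of all genes), and DESeq2 called 2, Rpl9 and Rpl12, both lower (DESeq2 called 3.09% of all genes). Non-overlapping groups were found for 5 members, all lower in XX (8.45% of all genes), and for 0 higher (8.93%). The members up to 750 bases had a median of -0.40, the other genes of that length -0.34 and the other genes over 5000 bases 0.07. Taking out the length trend left a median of -0.08. Without XY control replicate 2, 30 members were called lower (17.6% of all genes were called, higher or lower).

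Between the KO sexes at E11.5 the median was -0.16, with 63 of 80 members below 0. EdgeR called 0 members (0.0844% of all genes), 8 had an unadjusted p under 0.05 (16.1% of all genes), and DESeq2 called 1, Rpl15, which was lower in XX KO (DESeq2 called 2.31% of all genes). There was no overlap for 7 members lower in XX KO (11.8% of all genes) and 0 higher (12.7%). The medians by length class were -0.10 for members of up to 750 bases and -0.19 for the other genes of that length. Without the length trend the members' median was -0.04. The interaction of sex and deletion was called for 0 members by edgeR (0.0352% of all genes) and 0 by DESeq2 (1.17%), with 3 members at an unadjusted p under 0.05 (12.8%).

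**Figure D3:**
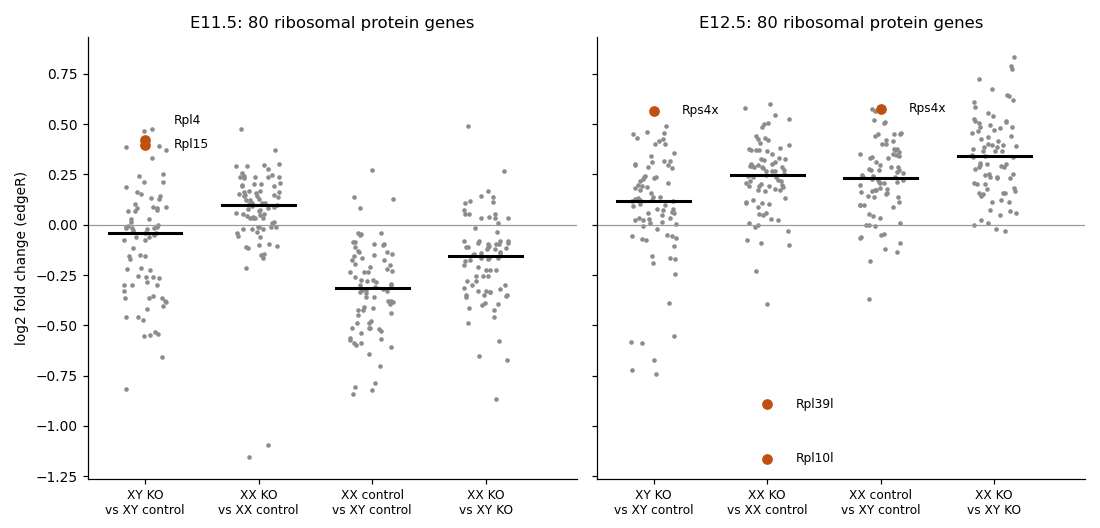
Log2 fold changes of the 80 ribosomal protein genes in each comparison (edgeR), at E11.5 (left) and E12.5 (right). Grey points are genes, orange points with names are genes with an FDR under 0.05, and black bars are medians over the 80 genes. The bars lie at -0.31 for XX against XY control at E11.5 and at 0.34 for XX KO against XY KO at E12.5, where no gene was called.

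At E12.5, XY KO against XY control gonads, 20.6% of the 14348 tested genes and 1 of the 80 members passed the test. This was Rps4x, an X-linked small-subunit gene, which was higher in XY KO (as 10.3% of all genes were) and had 379, 471 and 454 CPM in the XY control libraries and 675, 607 and 651 CPM in the XY KO libraries. These did not overlap, and the log2 fold change was 0.57 ± 0.16 (SE, adjusted p = 0.0198 by edgeR). Rpl4 had a value of 0.30 (adjusted p = 0.0875 by edgeR) without overlap between the groups. The median of the members was 0.12 against -0.01 for all genes, with 59 of 80 above 0 and 10 at an unadjusted p under 0.05 (31.8% of all genes). Between the groups there was no overlap for 17 members that were higher (19.8% of all genes) and 6 that were lower (19.3%). With the length trend taken out, 5 members were called higher, among them Rpl4, Rpl7, Rpl32 and Rps4x. In that fit 23.4% of all genes were called, higher or lower. The call of Rps4x was lost without XY control replicate 1 (0.48), XY KO replicate 1 (0.53) or XY KO replicate 3 (0.55).

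Rps4x was also the only member called by edgeR between the control sexes at E12.5, where 23.8% of all genes were called and 11.4% were higher in XX. The XX control libraries had 530, 689 and 725 CPM, all above the XY control libraries, and the log2 fold change was 0.58 ± 0.16 (adjusted p = 0.0156 by edgeR). The XX KO libraries had 930, 627 and 820 CPM and overlapped with the XY KO libraries (0.30, adjusted p = 0.299 by edgeR). Both calls of Rps4x share the XY control libraries, in which marker sums also stood apart. The summed level of 8 mesonephric markers, none at 0, was 104 to 135 CPM in XY control and 306 to 372 in XX control. It was 318 to 436 in XX KO and 299 to 345 in XY KO. Of these 8, 6 were called higher and 1 lower in XY KO than in XY control (10.3% of all genes each way). Between the control sexes 4 were higher and 1 lower in XX (11.4% and 12.4% of all genes). Emx2 of this list is also on the gonadal somatic list. The summed level of 7 Sertoli cell markers was 1705 to 2392 CPM in XY control and at most 77.3 CPM in any other library of the stage. The part of either marker set in the level of Rps4x was not tested. The interaction of sex and deletion for Rps4x was 0.28 (adjusted p = 0.459 by edgeR), and at E11.5 Rps4x did not pass a test, with 0.16 for XY KO against XY control and -0.09 between the control sexes. The call between the control sexes was lost without XX control replicate 2 (0.53), XX control replicate 3 (0.49) or XY control replicate 1 (0.49). A share of 52.94% of the Rps4x windows occurs in another gene's transcripts, so part of its counts may be uncertain.

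In XX KO against XX control gonads of E12.5 the called members were the germ cell relatives Rpl10l and Rpl39l, 2 of 80 against 5.26% of all genes, and both were lower (1.85% of all genes). Rpl10l had 8.35, 11.51 and 7.31 CPM in the XX control libraries and 5.39, 3.60 and 3.16 CPM in the XX KO libraries. All 3 XX KO libraries were below the XX control libraries, and the log2 fold change was -1.16 ± 0.26 (adjusted p = 0.0248 by edgeR). Rpl39l had 14.0, 13.3 and 9.69 CPM against 8.55, 6.86 and 4.50 CPM, again without overlap, and a log2 fold change of -0.89 ± 0.22 (adjusted p = 0.0357 by edgeR). In the XY gonads of E12.5, KO against control, the 2 genes had values of -0.72 and -0.59 (adjusted p = 0.0726 and 0.0878 by edgeR), also without overlap. At E11.5 their values in XX KO against XX control were -1.16 and -1.09 (adjusted p = 0.168 and 0.320 by edgeR), with levels of 0.781 to 5.57 CPM.

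Germ cell markers moved with these 2 genes. Of the 8 listed markers, Pou5f1, Kit and Sox2 were called lower in XX KO against XX control at E12.5 (-0.91, -0.84 and -1.26) and none was called higher. Of all genes, 1.85% were called lower and 3.42% higher there. The median of the list was -0.80. The summed level of the 8 markers ran from 1002 to 1730 CPM in the XX control libraries, 405 to 878 in the XX KO libraries, 980 to 1282 in the XY control libraries and 747 to 911 in the XY KO libraries. In XY KO against XY control, Dppa3 and Pou5f1 were called lower (-1.12 and -0.81), as were 10.3% of all genes. Fewer germ cells and less RNA per germ cell cannot be told apart in bulk samples, and the part of the germ cell content in the levels of Rpl10l and Rpl39l was not tested. The widely expressed relatives did not pass the test in XX KO against XX control: Rpl10 had -0.09 (adjusted p = 0.751 by edgeR) and Rpl39 0.11 (adjusted p = 0.888 by edgeR). Both calls were lost without XX control replicate 1 (-1.22 and -0.79), XX control replicate 2 (-0.95 and -0.84) or XX KO replicate 3 (-1.01 and -0.68), and that of Rpl39l also without XY KO replicate 2 (-0.89).

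**Figure D4:**
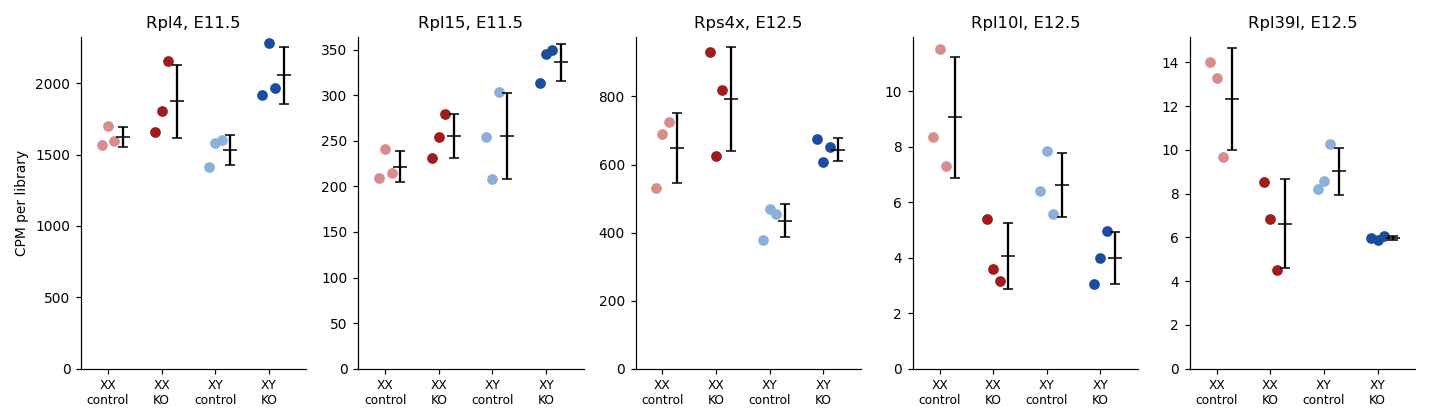
Levels in CPM of the 5 ribosomal protein genes with an FDR under 0.05 in a comparison, by library, at the stage of the call. Points are the 3 libraries of a genotype, and the black marks give their mean and standard deviation. Rps4x is lowest in the XY control libraries (379 to 471 CPM), and Rpl10l and Rpl39l lie lower in both KO genotypes than in the controls of the same sex.

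Most other members had values above 0 in XX KO against XX control at E12.5, and none of these passed edgeR's test. The median of the 80 members was 0.25 against -0.0015 for all genes, 70 of 80 lay above 0, and 11 had an unadjusted p under 0.05 (23.6% of all genes). The highest values were those of Rps2 (0.60) and Rps19 (0.58), and neither passed the test. Only Rps9 was higher without overlap of the groups (1 member, 13% of all genes), and 2 members, Rpl10l and Rpl39l, were lower without overlap (10.5%). The members up to 750 bases had a median of 0.21 and the other genes of that length 0.04, and with the length trend taken out the members' median was 0.16. In that fit Rps9 was called higher beside the 2 lower members (7.62% of all genes), as it was by DESeq2 (10.1%). Without XX KO replicate 2, the library with a module median of -0.17, 17 members were called, 15 of them higher. In that fit 11.7% of all genes were called, higher or lower.

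Between the control sexes at E12.5 the members lay above 0 for XX over XY, on the opposite side to E11.5 (the difference between stages was not tested), with a median of 0.23 and 69 of 80 above 0 against 0.01 for all genes. There were 7 members at an unadjusted p under 0.05 (33.6% of all genes), and the groups did not overlap for 10 members higher in XX (18%) and 1 lower (18.5%), Rplp0. Taking out the length trend left a median of 0.10. Without XX control replicate 1, 5 members were called, all higher in XX (20.9% of all genes were called, higher or lower).

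Between the KO sexes at E12.5 the members' median was the farthest from 0 of the 8 comparisons, and edgeR and DESeq2 both called 0 of the 80 members (0.153% of all genes by edgeR and 0.46% by DESeq2). The median was 0.34 against 0.01 for all genes, or 1.27-fold higher in XX KO, 77 of 80 members lay above 0, and 23 had an unadjusted p under 0.05 (19.2% of all genes). The highest values were those of Rps29 (0.83), Rps2 (0.79) and Rpl36 (0.77). For 4 members the groups did not overlap, all higher in XX KO (10.3% of all genes, with 9.75% lower). The medians of the other genes fell from 0.26 at up to 750 bases and 0.30 over 750 and up to 1000 bases to -0.26 over 5000 bases, and those of the members were 0.38 and 0.37 in the short classes. Without the length trend the members' median was 0.08, with 51 above 0. Without XX KO replicate 2, 25 members were called, all higher in XX KO (12.7% of all genes were called, higher or lower). The interaction of sex and deletion was called by edgeR for 12.9% of all genes but for 0 members, with 2 at an unadjusted p under 0.05 (25.7%) and 0 called by DESeq2 (15.8% of all genes). The median SE of the interaction was 0.302 for the members and 0.247 for all tested genes.

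**Figure D5:**
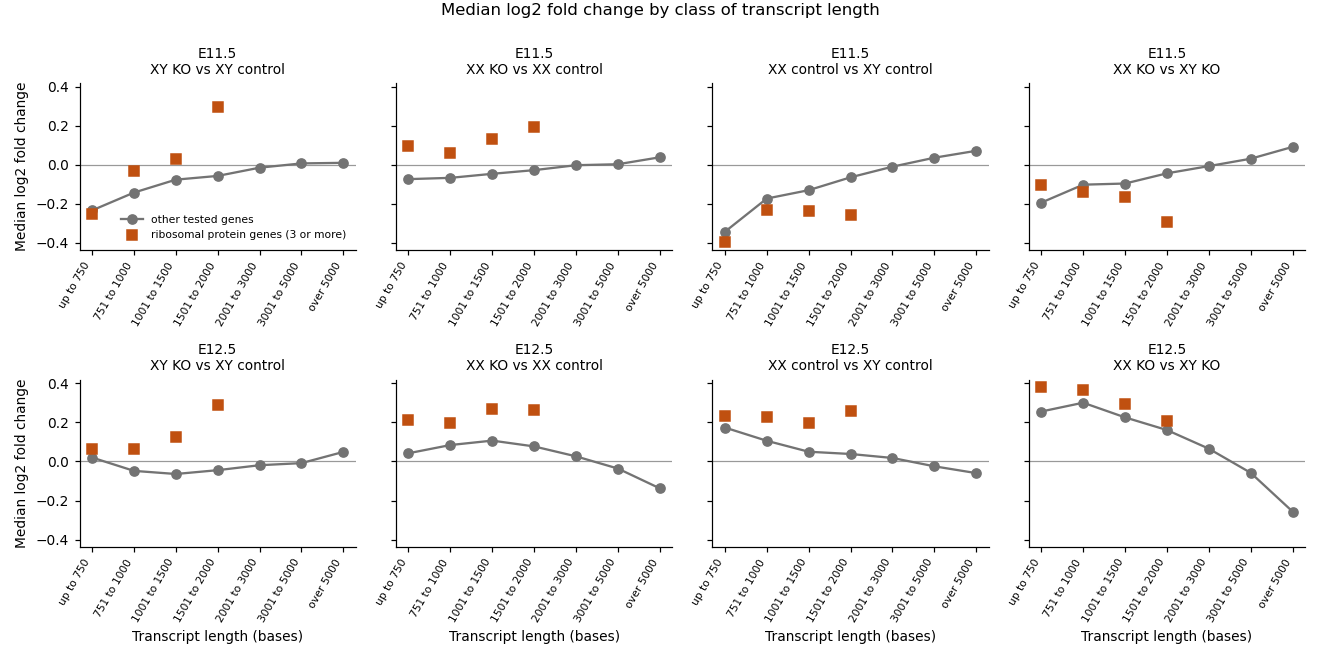
Median log2 fold change of tested genes by class of transcript length in bases, for the 4 comparisons at E11.5 (top) and E12.5 (bottom). Grey circles are genes that encode no member, and orange squares are ribosomal protein genes in classes with 3 or more of them. In XX KO against XY KO at E12.5 the grey line falls from 0.26 to -0.26, and the squares lie above it at 0.38 to 0.20; in XX KO against XX control at E11.5 the squares lie above 0 and the circles of the same classes below.

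Restricting the module to the 17 tested members with under 20% of windows shared gave medians of the same sign in the 8 comparisons. Between the control sexes they gave -0.28 (E11.5) and 0.24 (E12.5), beside -0.31 and 0.23 for the module. Between the KO sexes at E12.5 it was 0.23, below the 0.34 of the module. The large and small subunits had -0.28 and -0.36 between the control sexes at E11.5 and 0.32 and 0.36 between the KO sexes at E12.5. They lay further apart between the KO sexes at E11.5 (-0.22 and -0.11) and in the interaction of that stage (-0.05 and -0.24).

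The members of particular role named in this paragraph and the next passed no test by edgeR. The stalk, which recruits elongation factors, is made of Rplp0, Rplp1 and Rplp2. Between the KO sexes at E12.5 they had 0.21, 0.68 and 0.51, and the Rplp1 groups did not overlap, with 1088, 700 and 916 CPM in XX KO against 374, 640 and 679 CPM in XY KO. Rplp0 was lower in XX control than in XY control at E12.5 without overlap (-0.37, adjusted p = 0.181 by edgeR), with 617, 504 and 524 CPM against 830, 672 and 621 CPM. Rpl5 and Rpl11 bind 5S ribosomal RNA and, when ribosome assembly fails, the p53 regulator MDM2. They had -0.30 and -0.41 between the control sexes at E11.5 and 0.45 and 0.35 at E12.5, with no adjusted p under 0.152 in any comparison.

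Rpsa, which is also known as the laminin receptor, had its largest values between the KO sexes at E12.5 (0.52, adjusted p = 0.235 by edgeR) and between the control sexes at E11.5 (-0.38, adjusted p = 0.219 by edgeR). Rps6, the substrate of S6 kinase downstream of mTOR, reached 0.50 between the control sexes at E12.5 (adjusted p = 0.120 by edgeR) and did not overlap between XY KO and XY control at that stage (0.45). Rps19, whose loss causes Diamond-Blackfan anaemia in humans, had -0.39 in XY KO and 0.15 in XX KO at E11.5, and 0.19 and 0.58 at E12.5. Rpl38, linked to the translation of Hox mRNAs, had 4.85 CPM on average at E11.5 and 7.23 at E12.5, with no adjusted p under 0.523. Rpl41, the shortest protein of the set, had -0.70 between the control sexes at E11.5 and 0.59 between the KO sexes at E12.5, neither past the threshold (adjusted p = 0.237 for both by edgeR).

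The X-linked members other than Rps4x did not separate the sexes by a test. At E12.5 the values of XX control over XY control were 0.34 for Rpl10, 0.52 for Rpl36a and 0.51 for Rpl39, beside the module median of 0.23. Rpl10 had 44.2, 41.2 and 49.2 CPM in XX control against 34.8, 32.1 and 39.6 CPM in XY control, and these groups did not overlap (adjusted p = 0.133 by edgeR). At E11.5 the values were -0.42, -0.04 and -0.24. Among the relatives named with a final l, Rpl36al and Rps27l stayed between -0.42 and 0.16 in the 8 comparisons with no call. Rps4l had 194, 175 and 144 CPM in XX control and 205, 166 and 127 CPM in XY control at E12.5. Its value in XY KO against XY control was -0.67 (adjusted p = 0.138 by edgeR). XY KO replicate 1 was the lowest with 49.8 CPM, and the other XY KO libraries had 120 and 142 CPM.

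The wider translation machinery was read from lists chosen beside the members. Genes of cytosolic ribosomal proteins or their relatives whose symbols fall outside the rule (5 tested, such as Fau, Rps3a1, Rpl22l1 and Rpl7l1) had no call in the 8 comparisons. The list medians were -0.24 between the control sexes at E11.5 and 0.15 between the KO sexes at E12.5. Of 7 elongation factors only Eef1a1, which brings aminoacyl-tRNA to the ribosome, was called. It was higher in XY KO at E12.5 (0.40, adjusted p = 0.0237 by edgeR), as were 10.3% of all genes. Of 15 other TOP mRNAs, Npm1 (0.46) and Nap1l1 (0.56), both histone chaperones, were called higher in XY KO at E11.5 (5.88% of all genes). Vim, an intermediate filament, was lower in XX than XY control at E12.5 (-0.50, with 12.4% of all genes lower). The 10 tested host RNAs of small nucleolar RNAs, which also carry TOP tracts and have a median length of 657.5 bases, had no call, with medians of -0.51 (E11.5) and 0.28 (E12.5) between the control sexes.

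The factors that build ribosomes are longer, with a median of 2702 bases for the 39 tested biogenesis genes. In XY KO against XY control at E11.5, 5 of them were called higher, led by Tsr1 (0.49), Dkc1 (0.35) and Nop58 (0.35), and Bop1 was lower (-0.29). Of all genes, 5.88% were called higher and 6.81% lower there. At E12.5 Rrs1 (-0.69), Bop1 (-0.63) and Sbds (-0.45) were called lower in XY KO and none was higher (10.3% of all genes each way). No biogenesis gene was called in the other 6 comparisons. Of 12 RNA polymerase I genes, Rrn3, which recruits the polymerase to ribosomal DNA, was lower in XX KO (-0.67) and higher in XX than XY control (0.48) at E12.5. Of all genes, 1.85% and 11.4% were called in these directions. Among 16 genes listed as regulators of ribosome production or related to them, 2 were called higher and 1 lower in XY KO at E11.5 (5.88% and 6.81% of all genes). Mycn was called higher in both KO genotypes at E11.5 (0.52 in XY and 0.62 in XX) and higher in XX than XY control at E12.5 (0.56). Of all genes, 5.88%, 1.81% and 11.4% were called higher in these comparisons. Rps6kb2 was lower (-0.39) in XY KO at E11.5. The list also holds the cell cycle inhibitor Cdkn1a as a related gene. It was higher in XY KO at E12.5 (1.68) and in XX than XY control (1.58), as 10.3% and 11.4% of all genes were.

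Other lists of nuclear genes served as a further comparison. The 71 tested respiratory chain genes had a median length of 731 bases and a median of 0% shared windows. Their median was -0.20 between the control sexes at E11.5 and 0.32 between the KO sexes at E12.5, where the members had -0.31 and 0.34, but 0.06 in XX KO against XX control at E12.5, where the members had 0.25. The 77 tested mitochondrial ribosomal protein genes, with a median length of 1226 bases, had -0.10, 0.23 and 0.08. Proteasome genes, 37 tested at E11.5 (median length 1541 bases) and 36 at E12.5, had -0.04, 0.09 and -0.08. In the same list order, XX KO against XX control at E11.5 gave -0.12, -0.06 and -0.10 (members 0.10). XY KO against XY control gave -0.17, -0.07 and 0.01 at E11.5 (members -0.04). At E12.5 it gave -0.14, -0.17 and -0.20 (members 0.12). The KO sexes at E11.5 gave -0.15, -0.14 and -0.13 (members -0.16), and the control sexes at E12.5 gave 0.11, -0.04 and -0.03 (members 0.23). Mesonephric markers, of which 8 were tested, had a median of 1.74 in XY KO against XY control and 1.44 between the control sexes at E12.5, and proliferation markers, of which 6 were tested, -0.48 and -0.34. The part of tissue content and of transcript length in the shifts of the module was not tested beyond the values given.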

How the data were processed

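RNA-seq was made from pooled fetal mouse gonads (E11.5 with mesonephros, NEBNext Ultra II Directional; E12.5, TruSeq stranded mRNA; paired 75-base reads). The authors mapped the reads to mm10 with Subread, and the deposited values are raw featureCounts counts per gene. The annotation and the treatment of multiply mapped reads are not given in the sources used here. A total of 12 columns of per-sample values, from tables of another mutant, were not used.

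Each stage was fitted with edgeR 4.0.16 in R 4.3.3: 1 CPM or more in at least 2 of 12 libraries, TMM, quasi-likelihood test (robust, legacy), a mean per genotype, FDR of 0.05 by Benjamini-Hochberg over all tested genes (14217 and 14348). CPM are taken over the tested genes. Replicates are separate pools of 2 pairs of gonads. Deviations used log2 CPM with a prior count of 2. Transcript lengths and shared windows came from GENCODE M21: one transcript per gene, by APPRIS rank, RefSeq match, basic tag, support level and length. The length trend was a spline with 5 degrees of freedom. DESeq2 1.42.0, library-size scaling, no filter, the length trend, a replicate block and leaving out each library were alternatives. Shares of all genes called under an alternative count both directions. The members and lists were chosen with earlier results of these data known. The text names called members, members of set role, the extremes of level, and at most 3 called genes per list, direction and comparison; the largest uncalled fold changes and the genes called only under an alternative were named after their values were seen. The scripts were tested on simulated counts for XY KO against XY control. The E11.5 simulation recovered 40% of 200 genes set to 1.5-fold and 96.5% of 200 set to 2-fold. For E12.5 these shares were 10% and 86.5%. A count of 0 called members therefore does not exclude shifts of 1.5-fold in single members, and some 2-fold shifts were missed as well. The simulations gave every gene of a stage the same spread, whereas the members had larger SEs than a typical gene. Recovery in the other comparisons was not simulated. Some genes' values are not reported here.

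Same-numbered libraries of different genotypes deviated together in some cases and in opposite directions in others, and the numbers were not treated as pairs.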

Additional observations from a re-analysis of the deposited data

How the results depend on the processing

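The direction of the members' median held in the 8 comparisons under DESeq2, library-size scaling, no filter, the replicate block and the members with few shared windows. Taking out the length trend moved the median between the control sexes at E11.5 from -0.31 to -0.079 and that between the KO sexes at E12.5 from 0.34 to 0.080, and turned XY KO against XY control at E11.5 from -0.04 to 0.11. It raised the members called to 11 (XY KO, E11.5, 17.3% of all genes), 2 (XX KO, E11.5, 4.38%), 5 (XY KO, E12.5, 23.4%) and 3 (XX KO, E12.5, 7.62%). DESeq2 called 4 members in XY KO (16.5% of all genes), 2 between the control sexes (3.09%) and 1 between the KO sexes (2.31%) at E11.5, and 5 in XY KO (23.4%), 3 in XX KO (10.1%) and 3 between the control sexes (26.4%) at E12.5. With library-size scaling the counts were 1 (XY KO, E11.5, 12.7% of all genes, where Rpl15 had 0.36 and an adjusted p of 0.0718) and 3 (control sexes, E12.5, 24.6%).

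Leaving out one library gave 0 to 15 called members in XY KO, 0 to 1 in XX KO, 0 to 30 between the control sexes, 0 to 1 between the KO sexes and 0 to 2 for the interaction at E11.5. At E12.5 it gave 0 to 2, 0 to 17, 0 to 5, 0 to 25 and 0 to 1. The medians at E11.5 ran from -0.20 to 0.06, -0.06 to 0.19, -0.46 to -0.19 and -0.29 to -0.07, and at E12.5 from 0.08 to 0.18, 0.12 to 0.41, 0.09 to 0.36 and 0.18 to 0.52, in the same order. The counts of 15 and 30 came without XY control replicate 2, those of 17 and 25 without XX KO replicate 2 and that of 5 without XX control replicate 1.

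The replicate block called 3 members in XY KO against XY control at E11.5 (Rpl4, Rpl15 and one lower in XY KO) and changed no other call. Correlations of same-numbered libraries' deviations ran from -0.38 to 0.35. These deviations were centred on the mean of each genotype's 3 libraries, so they cannot settle whether the numbers pair the samples. The causes of these changes were not tested.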
